A study of Ambystoma mexicanum with 18 samples.

Results

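The genes described here, AIF1L, NAAA, PLAU, NFATC1, CD9, SMOX and LGR6, are 7 of 99126 axolotl gene models, and were chosen by earlier results of the same libraries because their difference between Tig1-overexpressing and control cells was not the same at 8 and 3 days post electroporation (dpe). That difference, its change between the time points and its parts are therefore given as a description, without a test. Tig1 is a cell surface protein with a latexin domain, and Tig1P155A carries an alanine in place of a proline of that domain. Blastema cells, the progenitors that accumulate on an amputated limb, were sorted from electroporated blastemas of Hoxa13:mCherry axolotls whose limbs had been amputated near the elbow, and in which the distal gene Hoxa13 carries 1 tagged allele.

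The 18 libraries were made from 300 cells each by the SMARTseq2 protocol. They form 6 groups of 3, namely Tig1P155A, Tig1 and control cells at 8 dpe, and the same kinds at 3 dpe. Overexpressing cells were mCherry+/GFP+, since each Tig1 form was joined to GFP, whereas control cells were the mCherry+/GFP− cells of electroporated blastemas, so that every group carries the reporter and no group received GFP alone. The epidermis had been removed and blastemas were pooled within a condition. The study's methods refer to the libraries as biological replicates and do not say whether each came from its own pool, and p-values measure the spread between these libraries.

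Totals lay between 9732514 and 23086124 counts per library, of which mitochondrial genes took between 18.4% and 65.4%. The overexpressed gene, LOC115479139, had between 151 and 301 CPM (counts scaled to a common library size) in Tig1P155A cells and between 174 and 343 CPM in Tig1 cells at 8 dpe, against 3.84 to 8.18 CPM in control cells. Its level at 3 dpe was between 267 and 330 CPM in Tig1P155A cells and between 183 and 514 CPM in Tig1 cells, against 2.85 to 8.81 CPM in control cells. HoxA13, the reporter's gene, had between 18.5 and 40.4 CPM in Tig1P155A cells and between 11.9 and 20.7 CPM in Tig1 cells at 8 dpe, against 80.6 to 85.1 CPM in control cells. In libraries of 3 dpe it had between 2.19 and 9.01 CPM in Tig1P155A cells and between 3.13 and 28.8 CPM in Tig1 cells, against 77.0 to 115.9 CPM in control cells.

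Markers of other cell types also differed between the groups. Of 20 myeloid genes, 15 were measured, and their summed level lay between 3373 and 6137 CPM in Tig1P155A cells and between 3237 and 6528 CPM in Tig1 cells at 8 dpe, against 35.0 to 42.2 CPM in control cells. At 3 dpe the sum lay between 6650 and 6914 CPM in Tig1P155A cells and between 5511 and 6094 CPM in Tig1 cells, against 14.9 to 87.3 CPM in control cells. The leukocyte gene PTPRC had at least 191 CPM in an overexpressing library and at most 8.57 CPM in a control one, CSF1R at least 263 and at most 4.18 CPM, and the complement gene C1QB at least 1289 and at most 31.7 CPM. PTPRC was at 0 CPM in 1 control library at 3 dpe. The connective tissue sum (17 of 20 genes measured, among them PRRX1 and COL1A1) lay between 3427 and 3971 CPM in Tig1P155A cells and between 2937 and 10329 CPM in Tig1 cells at 8 dpe, against 11829 to 16984 CPM in control cells. At 3 dpe it lay between 833 and 1614 CPM in Tig1P155A cells and between 923 and 1991 CPM in Tig1 cells, against 5196 to 10063 CPM in control cells. The endothelial sum (8 of 10) lay between 57.0 and 111 CPM in Tig1P155A cells and between 95.7 and 204 CPM in Tig1 cells at 8 dpe, against 18.5 to 50.0 CPM in control cells, and between 77.8 and 80.6 CPM in Tig1P155A cells and between 57.8 and 112 CPM in Tig1 cells at 3 dpe, against 4.31 to 7.19 CPM in control cells. The epidermis sum (5 of 12) lay between 202 and 698 CPM in Tig1P155A cells and between 152 and 1911 CPM in Tig1 cells at 8 dpe, against 712 to 908 CPM in control cells, and between 42.6 and 196 CPM in Tig1P155A cells and between 99.5 and 223 CPM in Tig1 cells at 3 dpe, against 483 to 636 CPM in control cells. The muscle sum (7 of 10) lay between 12.3 and 431 CPM in Tig1P155A cells and between 29.1 and 474 CPM in Tig1 cells at 8 dpe, against 6.59 to 32.3 CPM in control cells, and between 0.819 and 49.0 CPM in Tig1P155A cells and between 7.39 and 36.5 CPM in Tig1 cells at 3 dpe, against 46.7 to 163 CPM in control cells. Sums of lymphocyte (5 of 12) and erythroid (4 of 10) genes were at most 7.73 and 14.6 CPM. A sum follows its most abundant genes. Taken by gene (adjusted p under 0.05, edgeR's quasi-likelihood test), 14 of the 15 myeloid genes were higher in overexpressing than in control cells at each time. Of all genes, 11.9% were at 8 dpe and 17.0% at 3 dpe. Of the 17 connective tissue genes, 9 were lower at 8 dpe (7 to 15 under the alternatives) and 16 at 3 dpe, against 3.53% and 15.5% of all genes. In overexpressing over control cells, 1 of the 5 epidermis genes had a log2 fold change below 0 at 8 dpe and 3 at 3 dpe. The medians were 2.12 and −1.51, and those of the muscle genes 3.67 and −1.23. At an adjusted p under 0.05 (edgeR's quasi-likelihood test), 0 epidermis and 0 muscle genes were higher at either time. Of the epidermis genes 1 was lower at 8 dpe and 2 at 3 dpe, and of the muscle genes 1 at each time. With other scaling, filters, tools or designs, or a library left out, 1 to 4 muscle and 1 to 3 epidermis genes were lower at 3 dpe. At 8 dpe it was 0 to 1 of either list. With DESeq2, 1 epidermis and 3 muscle genes were higher at 8 dpe, and 3 and 5 when all genes with a read were kept. Of the 8 endothelial genes, 1 passed an adjusted p under 0.05 at each time (edgeR's quasi-likelihood test), being higher, with medians of 0.67 and 0.40. At 3 dpe, 3 were higher with DESeq2 and with all genes with a read. On library size alone, and under several other alternatives, 1 was lower at 3 dpe. The first Tig1 library at 8 dpe stands apart in the connective tissue, epidermis (1911 CPM) and endothelial (204 CPM) sums, and the first Tig1P155A library (431 CPM) and the third Tig1 library (474 CPM) at 8 dpe in the muscle sum. All 7 genes were past the threshold for the change of effect without the first Tig1P155A, the first Tig1 or the third Tig1 library at 8 dpe. Without the second Tig1P155A or the third control library at 8 dpe, only 1 was. The genes were chosen by this contrast, so these counts are no test of the part of any library. The part of these markers in the results that follow was not tested. In such bulk libraries, fewer cells of a type and less RNA per cell cannot be told apart.

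**Figure D1:**
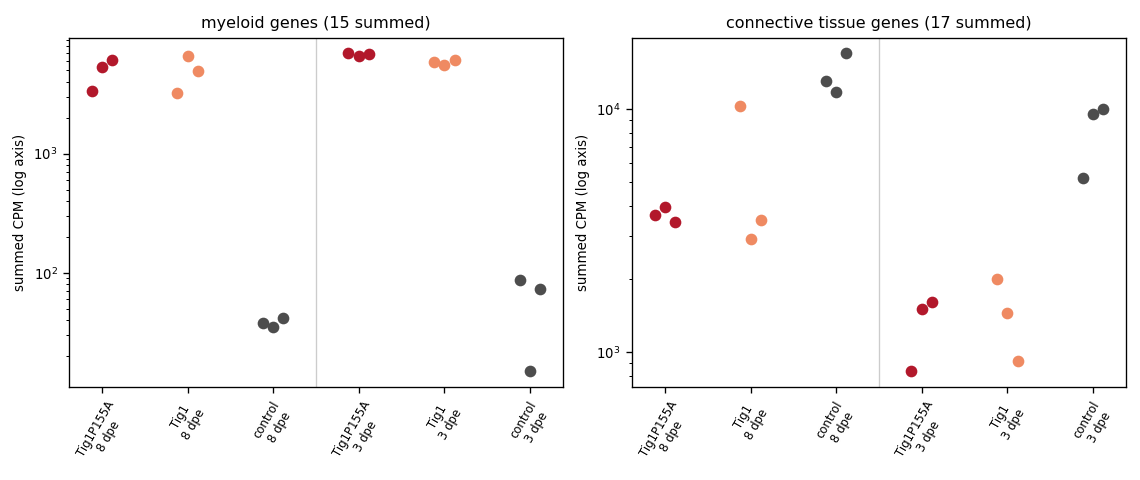
Summed CPM (log axis) of the 15 measured myeloid genes and the 17 measured connective tissue genes in each library, by group. The myeloid sum of every overexpressing library is at least 3237 CPM and that of every control library at most 87.3 CPM, while 1 Tig1 library at 8 dpe reaches 10329 CPM in the connective tissue sum.

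As background, the 7 genes belong to different pathways. PLAU is urokinase, a secreted protease that turns plasminogen into plasmin at the cell surface, and NAAA is a lysosomal enzyme that hydrolyses N-acylethanolamines in mammals. SMOX oxidises spermine, a polyamine, and AIF1L is an actin-binding relative of the macrophage protein AIF1. NFATC1 is a transcription factor that enters the nucleus when calcium activates calcineurin, and in mammals it drives the formation of osteoclasts and of heart valves. CD9 is a tetraspanin, a membrane protein that gathers integrins and other partners, and LGR6 is a receptor for R-spondins, which strengthen Wnt signalling.

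In the log2 fold changes that follow, both Tig1 forms are averaged unless one is named. A log2 fold change is of overexpressing over control cells of the same time, with its standard error (SE), and its change is the value at 8 dpe minus that at 3 dpe. The SE was derived from the fit, as the size of the log2 value divided by the square root of the quasi-likelihood F statistic. It and the 95% intervals built on it are approximate. They can be too narrow where reads are few, as for LGR6 in Tig1P155A cells at 3 dpe. Over all 25377 genes tested, the change passed an adjusted p under 0.05 for 36 genes (0.142%), and it is this contrast that chose the 7 genes. A gene is called higher or lower in all 3 libraries where these lie beyond every library of the group they are set against. At 3 dpe, 6 of the 7 genes were higher in all 3 Tig1P155A libraries than in control cells, as were 21.7% of all genes, and 1, LGR6, was lower in all 3, as were 22.0% of all genes. In Tig1 cells at 3 dpe the same 6 were higher and the same 1 lower in all 3 libraries, against 18.9% and 18.7% of all genes. Both forms were set against the same 3 control libraries of each time, so the counts of the forms are not independent. At 8 dpe, AIF1L, NAAA, PLAU and SMOX were higher in all 3 libraries of Tig1P155A (17.4% of all genes) and NFATC1 lower (17.0%). In Tig1 cells at 8 dpe, NAAA, PLAU and SMOX were higher in all 3 libraries (16.9%) and NFATC1 lower (14.9%). On library size alone, the libraries of NFATC1 and of CD9 at 3 dpe overlapped those of control cells for both forms, and so did SMOX in Tig1P155A cells at 8 dpe, whereas LGR6 was then lower in all 3 Tig1 libraries at 8 dpe. That scaling also moved the log2 fold changes at 3 dpe of all 7 genes downwards. For Tig1P155A and for Tig1 they were then 1.56 and 0.97 for PLAU, 1.11 and 0.88 for NFATC1, 1.10 and 1.08 for CD9, 5.76 and 5.37 for AIF1L, 5.41 and 4.92 for NAAA, 4.03 and 3.50 for SMOX, and −7.75 and −2.48 for LGR6. For CD9 at 8 dpe they were −0.73 and −0.64, and −0.29 and −0.09 with TMM.

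**Figure D2:**
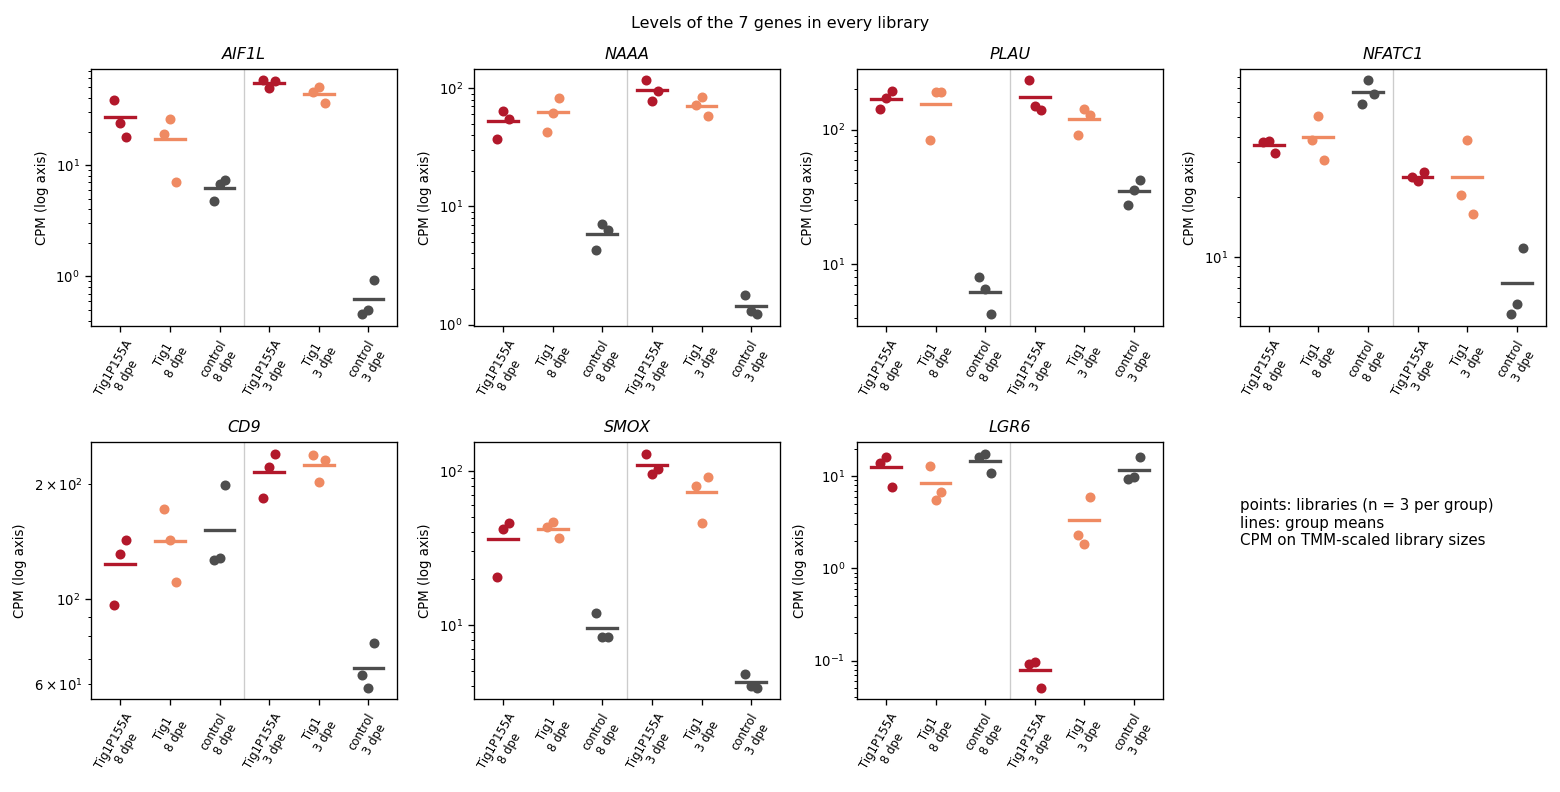
CPM (log axis) of each gene in every library, with points for the 3 libraries of a group and a line for the group mean. LGR6 is near 0 in the 3 Tig1P155A libraries at 3 dpe, and NFATC1 is lower in overexpressing than in control cells at 8 dpe and higher at 3 dpe.

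PLAU (AMEX60DD052157, chromosome 8q, 211646677 to 211670230, plus strand, AmexG_v6.0-DD) was the gene with a larger overexpression effect at the later time. It had 141, 171 and 195 CPM in Tig1P155A cells and 83.8, 190.1 and 191 CPM in Tig1 cells at 8 dpe, against 8.05, 6.53 and 4.25 CPM in control cells. Its values at 3 dpe were 232, 151 and 140 CPM in Tig1P155A cells and 91.2, 143 and 128 CPM in Tig1 cells, against 27.4, 35.7 and 42.6 CPM in control cells. The overexpressing libraries of both times overlapped, whereas the control libraries at 8 dpe lay under all those at 3 dpe. PLAU had a log2 fold change of 4.69 (SE 0.38) at 8 dpe and 2.04 (SE 0.32) at 3 dpe, a change of 2.65 (SE 0.42).

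NAAA (AMEX60DD043679, chromosome 6p, 1388569667 to 1389118867, plus strand) had 37.3, 64.3 and 55.1 CPM in Tig1P155A cells and 42.8, 61.7 and 82.9 CPM in Tig1 cells at 8 dpe, against 4.26, 7.03 and 6.35 CPM in control cells. NAAA at 3 dpe had 116, 78.1 and 93.8 CPM in Tig1P155A cells and 71.4, 83.6 and 57.8 CPM in Tig1 cells, against 1.77, 1.31 and 1.22 CPM in control cells. Every overexpressing library lay above every control library at both times. NAAA had a log2 fold change of 3.28 (SE 0.32) at 8 dpe and 5.85 (SE 0.37) at 3 dpe, a change of −2.56 (SE 0.39).

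SMOX (AMEX60DD046188, chromosome 6q, 1481501495 to 1481763504, minus strand) had 20.4, 42.3 and 46.0 CPM in Tig1P155A cells and 43.3, 46.9 and 36.5 CPM in Tig1 cells at 8 dpe, against 12.01, 8.35 and 8.27 CPM in control cells. SMOX at 3 dpe had 130.0, 95.9 and 103 CPM in Tig1P155A cells and 80.2, 45.8 and 92.0 CPM in Tig1 cells, against 4.81, 4.01 and 3.90 CPM in control cells. The groups did not overlap at either time, although the smallest gap at 8 dpe was between 20.4 CPM in a Tig1P155A library and 12.01 CPM in a control library. The log2 fold change was 2.04 (SE 0.31) at 8 dpe and 4.40 (SE 0.35) at 3 dpe, a change of −2.36 (SE 0.40).

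AIF1L (AMEX60DD050391, chromosome 8p, 48166447 to 48305779, minus strand) had 38.7, 23.9 and 17.97 CPM in Tig1P155A cells and 19.0, 25.9 and 7.04 CPM in Tig1 cells at 8 dpe, against 4.71, 6.70 and 7.27 CPM in control cells. AIF1L at 3 dpe had 57.5, 49.6 and 56.4 CPM in Tig1P155A cells and 45.0, 49.9 and 36.4 CPM in Tig1 cells, against 0.454, 0.494 and 0.934 CPM in control cells. These control libraries held 10, 17 and 23 reads of AIF1L, so the size of its effect at 3 dpe rests on few reads. The third Tig1 library at 8 dpe lay within the range of the control cells, and the others lay above them. The log2 fold change was 1.79 (SE 0.38) at 8 dpe and 6.27 (SE 0.50) at 3 dpe, a change of −4.48 (SE 0.54), the largest average change of the 7 genes. For Tig1 alone at 8 dpe it was 1.48 (SE 0.41), and between 1.01 and 1.85 when a library was left out.

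CD9 (AMEX60DD006621, chromosome 12p, 206294099 to 206625923, plus strand) had 96.5, 131 and 143 CPM in Tig1P155A cells and 172, 143 and 111 CPM in Tig1 cells at 8 dpe, against 127, 128 and 199 CPM in control cells. Values of 3 dpe were 184, 221 and 240 CPM in Tig1P155A cells and 238, 202 and 231 CPM in Tig1 cells, against 63.4, 58.8 and 76.6 CPM in control cells. The libraries overlapped at 8 dpe and did not at 3 dpe. CD9 had a log2 fold change of −0.19 (SE 0.22) at 8 dpe and 1.73 (SE 0.24) at 3 dpe, a change of −1.92 (SE 0.32).

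NFATC1 (AMEX60DDU001005462, scaffold C0032080, 58023 to 570480, plus strand) was on opposite sides of its control cells at the 2 time points. It had 37.5, 38.3 and 33.2 CPM in Tig1P155A cells and 38.7, 50.9 and 30.6 CPM in Tig1 cells at 8 dpe, against 58.2, 76.5 and 65.3 CPM in control cells. The values at 3 dpe were 25.1, 24.0 and 26.6 CPM in Tig1P155A cells and 20.4, 38.7 and 16.5 CPM in Tig1 cells, against 5.18, 5.87 and 11.2 CPM in control cells. All 6 overexpressing libraries lay under the control libraries at 8 dpe and above them at 3 dpe. Such a switch of sides, in either direction, was seen in 10 of the 25377 genes (0.0394%). NFATC1 was chosen by a large change of effect, so this share is no test of it. On library size alone its libraries at 3 dpe overlapped those of control cells for both forms. The log2 fold change was −0.80 (SE 0.29) at 8 dpe and 1.76 (SE 0.32) at 3 dpe, a change of −2.57 (SE 0.42). A short second NFATC1 model on the other strand within these bounds had 0 counts. In control cells, the sum of 8 endothelial genes (of 10 listed) lay between 18.5 and 50.0 CPM at 8 dpe, against 4.31 to 7.19 CPM at 3 dpe, and in overexpressing cells of either form between 57.0 and 204 CPM at 8 dpe and between 57.8 and 112 CPM at 3 dpe. None of these 8 genes differed between the times in control cells at an adjusted p under 0.05 (edgeR's quasi-likelihood test). Their median log2 difference there was 1.07, against 0.03 over all genes, with 2 of the 8 below 0. With 3 libraries per group, the absence of calls does not show that their levels stayed the same. Other lists shifted between the times in control cells too. The median was 1.04 for connective tissue genes (0 of 17 below 0) and 2.09 for epidermis genes (0 of 5). It was −1.12 for myeloid genes (13 of 15 below 0), −2.41 for muscle genes (5 of 7), −2.19 for erythroid genes (3 of 4) and 0.00 for lymphocyte genes (1 of 5). None of these genes was called. The part of endothelial cells or of any other cell type in NFATC1 was not tested.

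LGR6 (AMEX60DD008622, chromosome 13p, 71863846 to 72130313, minus strand) had 14.1, 16.4 and 7.68 CPM in Tig1P155A cells and 12.9, 5.46 and 6.79 CPM in Tig1 cells at 8 dpe, against 16.1, 17.6 and 10.7 CPM in control cells. LGR6 at 3 dpe had 0.091, 0.096 and 0.051 CPM in Tig1P155A cells and 2.29, 1.82 and 5.91 CPM in Tig1 cells, against 9.40, 9.76 and 16.2 CPM in control cells. The Tig1P155A libraries at 3 dpe held 1, 2 and 1 reads, 4 in all, against 941 in the control libraries. This is a level 149-fold lower than in control cells (95% interval 58.1 to 549) and 41.8-fold lower than in Tig1 cells (15.9 to 156), from 135 reads, where the intervals cover counting error only. They leave out the spread between libraries and are no test, since LGR6 was chosen with these values known. The log2 fold change of the average of both forms was −0.52 (SE 0.42) at 8 dpe and −4.47 (SE 0.47) at 3 dpe, a change of 3.94 (SE 0.66). By form it was −7.12 (SE 0.70) for Tig1P155A and −1.81 (SE 0.51) for Tig1 at 3 dpe, the second being −2.50 without the third Tig1 library of that time. The change by form was 6.90 (SE 0.84) for Tig1P155A and 0.99 (SE 0.70, 95% interval −0.48 to 2.46) for Tig1, so that the average is mostly that of Tig1P155A. This interval is no test either, since the change of effect chose LGR6. Between the forms at 3 dpe the connective tissue, endothelial, epidermis and muscle sums and HoxA13 overlapped, whereas the myeloid sums did not, with 6650 to 6914 CPM in Tig1P155A cells, against 5511 to 6094 CPM in Tig1 cells. Their part in the LGR6 difference was not tested.

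**Figure D3:**
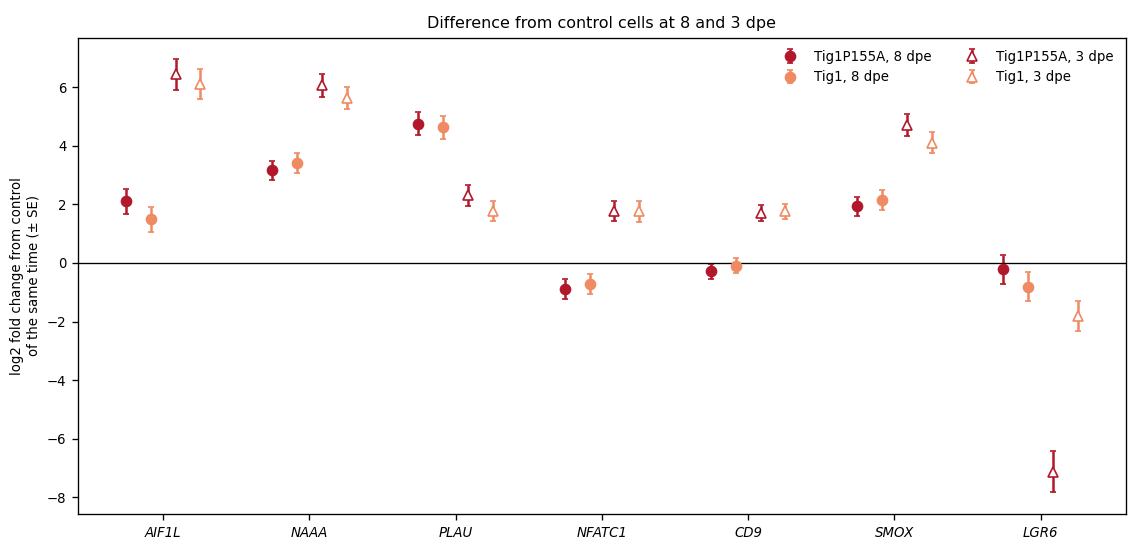
Log2 fold change from control cells of the same time (± SE) for each gene, form and time (filled circles 8 dpe, open triangles 3 dpe). The effect is nearer to 0 at 8 dpe for AIF1L, NAAA, CD9, SMOX and LGR6 and farther from 0 for PLAU, and for NFATC1 it is −0.80 at 8 dpe and 1.76 at 3 dpe (averages of the forms).

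The change between the times was then split into what happened in each kind of cell. Within control cells, log2 values at 8 minus 3 dpe were 3.30 (SE 0.46) for AIF1L, 3.17 (SE 0.37) for NFATC1, 2.03 (SE 0.33) for NAAA, 1.19 (SE 0.26) for CD9, 1.17 (SE 0.33) for SMOX and −2.49 (SE 0.36) for PLAU. Thus, 5 genes were higher in all 3 control libraries at 8 dpe than in those at 3 dpe, as were 11.4% of all genes, and PLAU was lower, as were 6.22%. LGR6 differed by 0.33 (SE 0.49), and its libraries overlapped. Marker sums of the control cells differed between the times as well. Without overlap, control cells at 8 dpe were higher than at 3 dpe in the connective tissue, endothelial and epidermis sums and lower in the muscle sum, while the myeloid sums overlapped. The part of these shifts in the values of the 7 genes was not tested.

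In Tig1P155A cells, NFATC1 and LGR6 were higher in all 3 libraries at 8 dpe than at 3 dpe (9.51% of all genes), with log2 differences of 0.53 (SE 0.34) and 7.23 (SE 0.71), and AIF1L, NAAA, CD9 and SMOX were lower (8.13%), with −1.02 (SE 0.41), −0.88 (SE 0.31), −0.80 (SE 0.26) and −1.59 (SE 0.33). In Tig1 cells only AIF1L and CD9 were lower in all 3 libraries (5.24%), with −1.33 (SE 0.41) and −0.66 (SE 0.26). On library size alone both overlapped, NFATC1 and LGR6 were higher in all 3 Tig1 libraries, and NAAA, NFATC1 and CD9 overlapped in Tig1P155A cells. Averaged over the forms, the difference between the times was 0.16 for PLAU, 0.60 for NFATC1 and −0.53 for NAAA, smaller than within control cells. It was −1.19 for SMOX, against 1.17 in control cells, and for LGR6 it was 4.27 against 0.33.

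**Figure D4:**
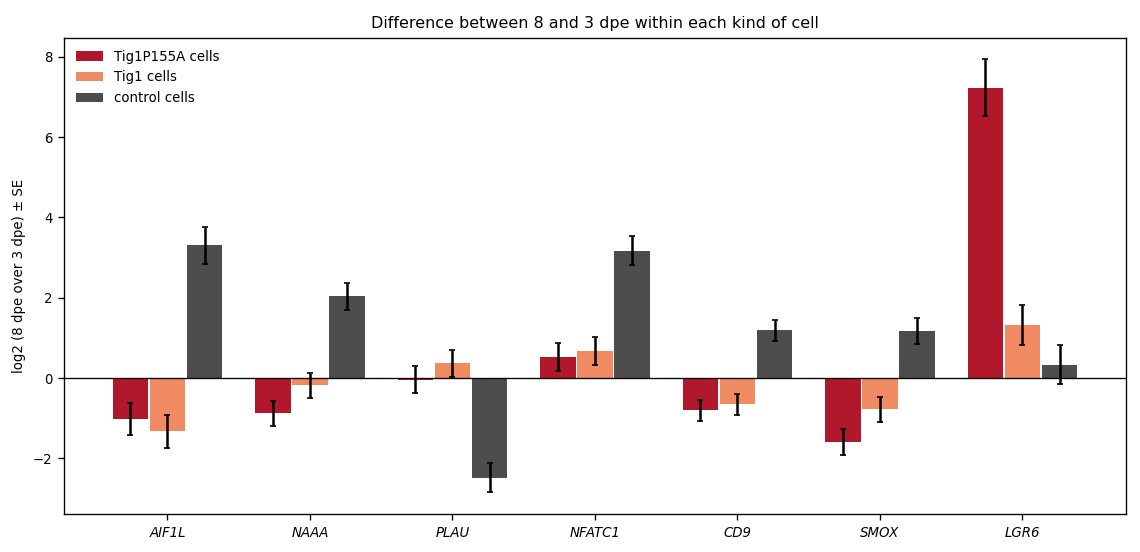
Log2 difference between 8 and 3 dpe (± SE) within Tig1P155A, Tig1 and control cells for each gene. The control bar is the longest for AIF1L, NAAA, PLAU, NFATC1 and CD9, while for LGR6 the Tig1P155A bar is 7.23 and the control bar 0.33.

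Whether the 2 Tig1 forms differ was not used to choose the genes, and was tested by edgeR's quasi-likelihood test with Benjamini-Hochberg adjustment over all genes. At 8 dpe, none of the 7 genes passed, with log2 differences between −0.26 and 0.62 (Tig1P155A minus Tig1), 95% intervals that reach from −0.90 to 1.63, and adjusted p between 0.942 and 1. Among all 25377 genes none passed either (0.00%), and DESeq2 gave 22 calls. Unadjusted, 1169 reached p under 0.05 by edgeR's test at 8 dpe, 1503 at 3 dpe and 1235 for the change of the form difference between the times. The first and the last are under the share of 0.05 that chance alone would give, and the count at 3 dpe is above it. That share is a rough guide only, since genes that reached 0.5 CPM in a single library were kept. At 3 dpe, the 6 genes other than LGR6 differed by between −0.06 and 0.59, with 95% intervals from −0.71 to 1.26 and adjusted p between 0.814 and 1, and 1 gene of all passed (0.00394%), LGR6 itself, for which this is no test. For the change of the form difference between the times, the values of these 6 genes lay between −0.81 and 0.31, with intervals from −1.76 to 1.50 and adjusted p from 0.972 upwards, and again 1 gene of all passed (0.00394%), LGR6, without a test of it. These intervals do not show that the forms act alike. The libraries of the forms overlapped for all 7 genes at 8 dpe (5.97% of genes do not overlap). At 3 dpe SMOX was higher and LGR6 lower in all 3 Tig1P155A libraries (6.43%). On library size alone this was lost for SMOX, whereas PLAU was then higher in all 3 Tig1P155A libraries.

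LGR6 was known from earlier results of the comparison of the forms at 3 dpe and was not tested there. Its log2 difference was −5.31 (SE 0.68) at 3 dpe and 0.60 (SE 0.49) at 8 dpe, with an interval of −0.44 to 1.63 at 8 dpe.

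**Figure D5:**
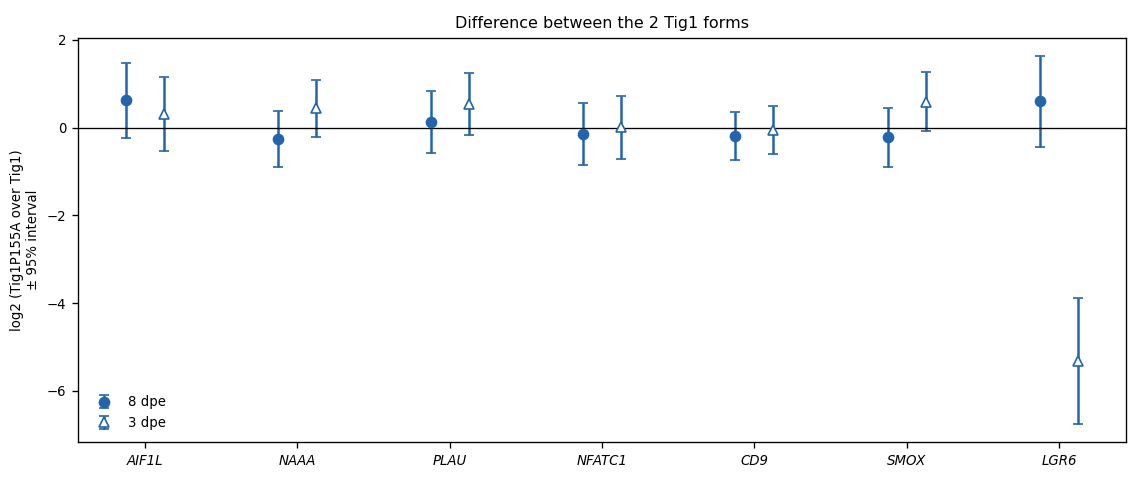
Log2 of Tig1P155A over Tig1 for each gene at 8 and 3 dpe, with 95% intervals. Filled circles are 8 dpe and open triangles 3 dpe. The intervals of the tested values include 0, and LGR6 at 3 dpe, plotted at −5.31, is a description without a test.

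Genes with related roles were listed by what the 7 genes are known to do, with earlier results of these data known. Counts of the listed genes beside the shares of all genes are therefore a description. Of the listed genes, 113 were tested by the same method (called, risen or fallen at an adjusted p under 0.05). In the change of effect between 8 and 3 dpe, none passed (lowest adjusted p = 0.156, for GALC, a lysosomal galactosylceramidase). With DESeq2 4 of the 113 passed, all lower, with all genes with a read 2 higher and 2 lower did, and without the first Tig1 library at 3 dpe 1 did. Relative to control cells at 8 dpe, 38 were higher and 9 lower, against 11.9% and 3.53% of all genes, and at 3 dpe 50 were higher and 20 lower, against 17.0% and 15.5% of all genes. The 9 became 5 without the first and 4 without the second control library at 8 dpe, and 14 without the first Tig1 library at 3 dpe. All-gene calls at 8 dpe were 3020 higher and 895 lower, but 1936 and 1667 on library size alone and 2658 and 1429 with normalization without mitochondrial genes. At 3 dpe they were 4303 higher and 3936 lower, but 2612 and 5898 on library size alone. On that scale, 24 of the 113 were higher and 14 lower at 8 dpe, and 30 higher and 25 lower at 3 dpe. With the libraries of 8 dpe alone, 15 were lower.

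The osteoclast list, which holds genes that NFATC1 is known to act with, had 7 of 13 genes higher at 8 dpe and 8 of 13 at 3 dpe, with median log2 fold changes of 4.17 and 4.92 against medians over all genes of 0.06 and 0.00. ACP5, the acid phosphatase of osteoclasts and macrophages, rose by 4.02 (SE 0.32, adjusted p = 9.73e-08) at 8 dpe and by 5.27 (SE 0.34, adjusted p = 1.09e-08) at 3 dpe, and CSF1R, the receptor of macrophage growth factors, by 7.74 and 7.55. CTSK, a cathepsin, had 0.42 (SE 0.39) and 0.29 (SE 0.39), neither called. CSF1R is also in the myeloid list. The osteoclast and plasminogen lists share a gene, and so do the actin and myeloid lists, so the counts of these lists are not separate. Among calcineurin and NFAT genes 4 of 13 were higher at 8 dpe, and 6 were higher and 2 lower at 3 dpe. Only 2 were higher at either time on library size alone, and the 2 lower became 1 without the first Tig1P155A, the second or the third Tig1 or the first control library at 3 dpe. RCAN1, a calcineurin regulator, rose by 1.98 (SE 0.35) and 2.95 (SE 0.37), and FKBP1A, which binds the calcineurin inhibitor tacrolimus, had −0.42, not called, and −0.66, a call lost under 5 alternatives. GSK3B, a kinase that acts on NFAT proteins, had −0.31 (SE 0.20) at 8 dpe and 0.43 (SE 0.21) at 3 dpe, neither called.

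Of the plasminogen list, 4 of 11 genes were higher at 8 dpe, and 6 were higher and 1 lower at 3 dpe, and on library size alone 2 were higher at 8 dpe. PLAUR, the receptor of urokinase, averaged 476 ± 183 CPM in Tig1P155A cells and 487 ± 31.4 CPM in Tig1 cells at 8 dpe, against 3.26 ± 1.87 CPM in control cells (SD, n = 3 each), and ANXA2, a surface protein that binds plasminogen, rose by 1.49 (SE 0.23) at 8 dpe and 2.26 (SE 0.24) at 3 dpe. S100A10, its partner, was called at 3 dpe (1.03, SE 0.37), a call lost under 17 alternatives. The change of PLAUR between the times was 0.62 (SE 0.95), and was not called.

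Among polyamine genes 5 of 16 were higher and 2 lower at 8 dpe, and 6 were higher and 3 lower at 3 dpe. At 8 dpe 3 were higher on library size alone, and the 2 lower became 0 without the first control library and 1 without the second control library, the second or the third library of either Tig1 form, or the second Tig1P155A library of 3 dpe. SLC3A2, an amino acid transporter subunit, rose by 3.73 and 3.39, SAT1, which acetylates spermine and spermidine, by 2.50 and 2.88, and AZIN1, an antizyme inhibitor, had −0.29 and −0.22, not called. Of N-acylethanolamine and ceramide genes 5 of 11 were higher at 8 dpe, and 5 were higher and 1 lower at 3 dpe. At either time 3 were higher on library size alone, and the 1 lower was lost with all genes with a read and without any of 7 libraries, namely the second control library at 8 dpe and, at 3 dpe, the first or the third Tig1P155A library, the second Tig1 library or any control library. PSAP, the precursor of the saposins, rose by 3.92 at 8 dpe and 3.89 at 3 dpe, ASAH1, the acid ceramidase, by 5.58 and 5.71, and GALC by 2.26 and 3.64. For CD9, the tetraspanins and their partners held 4 of 15 genes higher and 2 lower at 8 dpe, and 7 higher and 3 lower at 3 dpe. The 4 higher became 2 on library size alone or without the first control library at 8 dpe, and the 7 became 3 on library size alone. The 2 lower at 8 dpe became 0 with the replicate block or without any control library at 8 dpe, the first or the third Tig1P155A or the third Tig1 library at 8 dpe, or the second Tig1P155A or the first or second control library at 3 dpe, 1 without the second Tig1P155A or Tig1 library at 8 dpe or the first or the third Tig1P155A or the third control library at 3 dpe, 1 under the stricter filter, and 4 with the libraries of 8 dpe alone. The 3 lower at 3 dpe became 1 without the third Tig1P155A or the first or the third control library of that time and 5 with TMM without mitochondrial genes. CD53, a leukocyte tetraspanin, rose by 7.63 and 6.54. CD81 had 0.49 (SE 0.22), not called, at 8 dpe and rose by 1.30 (SE 0.23) at 3 dpe, and the integrin ITGB1 had −0.67 and −0.69, neither called. The actin list held 10 of 20 genes higher and 2 lower at 8 dpe, and 13 higher and 2 lower at 3 dpe. On library size alone 6 were higher at 8 dpe, and 8 higher and 4 lower at 3 dpe, and the 2 lower at 8 dpe became 1 without the second Tig1P155A or the second or the third control library. FSCN1, which bundles actin, rose by 1.40 (SE 0.30) and 2.65 (SE 0.32), TAGLN2 had 0.00 and −0.24, not called, and RAC1, called at both times by 0.86 and 0.75, lost the call under 16 and 20 alternatives.

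The LGR and Wnt list had 3 of 15 genes lower at 8 dpe and 8 at 3 dpe and none higher, with medians of −1.14 and −2.09. The count at 8 dpe was 5 or 6 under 7 of the alternatives in tool, normalization, filter or design, among them 6 with DESeq2, and between 2 and 6 with a library left out. RSPO2, an R-spondin, fell by 2.02 (SE 0.56) at 8 dpe and by 3.74 (SE 0.58) at 3 dpe, NKD1, a Wnt feedback inhibitor, fell by 1.81 (SE 0.39) and 3.10 (SE 0.40), and LRP6, a Wnt co-receptor, had 0.07 and 0.39, not called. RSPO2 was not called at 8 dpe without the second control library of that time. On library size alone the calls at 8 dpe of ANXA2, RCAN1 and FSCN1 and that of CD81 at 3 dpe were lost. The change of effect was 1.72 (SE 0.84) for RSPO2 and 1.29 (SE 0.58) for NKD1, and neither was called.

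The genes whose levels followed each of the 7 most closely over the 18 libraries, by Pearson's r of log2(CPM + 4), were described without a test, since the libraries fall into 6 groups and share composition. NAAA went with GPD1 (r = 0.990) and AKR1A1 (0.988), SMOX with OPTN (0.976) and XB5829846.L (0.975), PLAU with SIPA1 (0.964) and TFPI (0.958), and AIF1L with EEPD1 (0.952) and USF2 (0.952). NFATC1 went with BCL11A (0.938) and NFIA (0.901), LGR6 with ATAD2 (0.927) and FAM171A2 (0.922), and CD9 with DHRS3 (0.916) and ALDH2 (0.895). Of these partners, only BCL11A, NFIA and ALDH2 stayed among the closest 2 both with log2(CPM + 1) and on library size alone. On library size alone, r of the named partners lay between 0.838 (DHRS3) and 0.985 (GPD1). BCL11A averaged 53.3 CPM in Tig1P155A cells and 51.4 CPM in Tig1 cells at 8 dpe, against 82.7 CPM in control cells, and 30.8 CPM in Tig1P155A cells and 32.6 CPM in Tig1 cells at 3 dpe, against 16.9 CPM in control cells. TFPI, an inhibitor of blood clotting, averaged 364 CPM in Tig1P155A cells and 376 CPM in Tig1 cells at 8 dpe, against 63.6 CPM in control cells, and 342 CPM in Tig1P155A cells and 361 CPM in Tig1 cells at 3 dpe, against 148 CPM in control cells. Among the 7 genes, r was highest for NAAA and SMOX (0.944), and NFATC1 had r between −0.15 and 0.46 with the other 6.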

How the data were processed

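RNA of 18 libraries was measured. The authors mapped the reads to AmexG_v6.0-DD with STAR 2.7.6a and turned reads with a unique position into counts per gene model with featureCounts 2.0.1 (their processing notes also name bcl2fastq 2.19.1). The deposited table holds these raw counts. Whether counting used strand is not given in the sources used here. The 92 ERCC rows, all at 0, stayed out, whereas 37 mitochondrial genes were kept. Where several gene models shared a symbol, that with the highest mean count was used, and the other NFATC1, CD9 and LGR6 rows held at most 158 counts. CPM are on library sizes scaled by TMM (factors 0.511 to 1.49). The factors lay between 1.09 and 1.49 in control libraries and between 0.511 and 1.16 in overexpressing ones, so the scaling differs between the cells compared.

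Group means were fitted to all libraries by the quasi-likelihood method of edgeR 4.0.16 under R 4.3.3 (12 residual degrees of freedom, Benjamini-Hochberg adjustment over the 25377 genes that reached 0.5 CPM somewhere, that is in 1 library or more), and DESeq2 1.42.0 was an alternative. Figures used Python 3.11.15 and matplotlib 3.10.9. The number of columns of other samples was 0.

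The 7 genes and the gene lists were chosen with earlier results of these data known. Named genes are the 7, from each list the genes past the test of the change of effect or, with none, at most 3 with the highest mean CPM, the 2 genes with the highest r for each of the 7 (named genes that averaged 4 CPM or more), and PTPRC, CSF1R, C1QB, PRRX1 and COL1A1. HoxA13 and GALC's p were added after the values were seen. Alternatives changed the scaling (size factors of DESeq2 passed to edgeR, TMM computed without mitochondrial genes, or no scaling beyond library size), the filter (all genes with a read, or a minimum of 1 CPM in 3 or more libraries), the tool (DESeq2) and the design (the replicate number as a block, the libraries of 1 time point alone, each library left out in turn). Each replicate is 1 library, and no library was left out of the main fit. Positions are those of the deposited annotation.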

Additional observations from a re-analysis of the deposited data

Results flagged for a closer look

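NFATC1 stands out because the overexpressing and control cells were on opposite sides at the 2 time points. Its change of effect was −2.57 on the log2 scale (8 minus 3 dpe), with all 6 overexpressing libraries under the 3 control libraries at 8 dpe and above them at 3 dpe. The difference between the time points was not tested here, because it is what chose the gene. On library size alone the libraries at 3 dpe overlapped.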

How the results depend on the processing

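The change of effect passed the test for 36 genes, but for 0 on library size alone, 17 with TMM without the mitochondrial genes, 12 with a minimum of 1 CPM in 3 or more libraries, 659 with all genes with a read and 433 with DESeq2, and for 3 to 45 when a library was left out. It was 3 to 21 without any 1 of the Tig1P155A libraries of either time, the first or second Tig1 library of either time, control replicate 1 or 3 at 8 dpe or the second control library at 3 dpe. Of the 7 genes, all 7 were among these 36, but 0 on library size alone, 5 under the stricter filter and 1 without the second Tig1P155A library at 8 or at 3 dpe or the third control library at 8 dpe, and 2 to 6 without any of 8 other libraries, so that the choice of the genes depends on these libraries. Calls against control cells numbered 3915 at 8 dpe (2726 to 4171 with a library left out) and 8239 at 3 dpe (6269 to 8707). Between the forms, the 0 calls at 8 dpe became 226 with all genes with a read and 22 with DESeq2, and stayed 0 with any library left out. The 1 call at 3 dpe became 432, 96 and, with the libraries of that time alone, 0, and ranged from 0 to 2 with a library left out. For the change of the form difference, the 1 call became 0 on library size alone and with the replicate block, 266 with all genes with a read and 31 with DESeq2, and 0 to 1 with a library left out. With the replicate number as a block, the change of effect gave 35 calls. No pairing of the libraries by number was seen: residuals of 18 same-numbered pairs correlated between −0.258 and 0.213, and 6 of 18 libraries were closest to their own number. With 3 libraries per group this cannot exclude that same-numbered libraries share a pool or batch. The median log2 fold change over all genes was −0.43 at 8 dpe and −0.59 at 3 dpe on library size alone, against 0.06 and 0.00. CD9 in Tig1 cells at 8 dpe, −0.09, was 0.11 without the third control library. None of the 7 genes changed the direction of its change of effect in any alternative run. Since a large change in these same libraries chose the genes, this is no test of it. With 3 libraries per group, and 4 reads of LGR6 in Tig1P155A cells at 3 dpe, the precision of single values is limited.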
